A study of Mus musculus with 4 samples.

Results

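The genes of the mitochondrial respiratory chain and of ATP synthase were followed in subcutaneous white adipose tissue of mice that make mitochondrial ferritin in fat. They were chosen by name, as every gene of the deposited non-normalized matrix listed as an NDUF, SDH, UQCR or ATP5 gene, as CYC1, CYCS or ATPIF1, or as a nuclear cytochrome c oxidase subunit of the COX5, COX6B1, COX6C, COX7A2L, COX7B or COX7C type. The rule found 68 names on 104 probes, among 31492 names on 45281 probes in all. The rule reads names only, but it was set with earlier results of these data known. The names fall into 31 subunits of complex I, 1 NDUFAF assembly factor, 4 subunits of complex II, 8 genes of complex III and cytochrome c, 7 of complex IV, 15 subunits of complex V and 2 factors that act on complex V. NDUFA4, first described as a complex I protein, was counted with complex IV.

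FtMT-Adip mice carry a transgene for mitochondrial ferritin that the labels call fat-specific, without naming its promoter. The other group is wild type (WT). Both are C57BL/6 mice of 8 to 12 weeks that ate a high-fat diet, given with doxycycline for 3 weeks according to the series design, so diet and doxycycline are shared by both groups. Total RNA was read on Illumina BeadChips, with 2 arrays per group. It is not stated if each array holds RNA of a single mouse or of several, so the p-values measure only the spread between these samples, which may be technical.

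The respiratory chain passes electrons from NADH through complex I, or from succinate through complex II, to ubiquinone, then through complex III and cytochrome c to complex IV, where oxygen is reduced. Complexes I, III and IV pump protons across the inner membrane, and complex V, ATP synthase, uses the returning protons to make ATP. Much of the electron path consists of iron-sulfur clusters and haem, both of which need mitochondrial iron. Mitochondrial ferritin is an iron store of the mitochondrial matrix, so the comparison addresses how transcripts of these iron-using machines stand when that store is overproduced. The catalytic core subunits encoded by mitochondrial DNA are not among the genes followed here.

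Total signal per array was between 14143397 and 15086032. Of the 20797 tested probes of the whole array, 682 (3.28%) were higher and 866 (4.16%) lower in FtMT-Adip. The mouse Ftmt probe (ILMN_2705758) had raw signals of 104.9 and 106.8 in FtMT-Adip and 102.1 and 110.6 in WT, below background on every array. Whether it matches the transgene's transcript was not tested, so it does not check the labels. Of 10 adipocyte markers 8 were lower in FtMT-Adip (median log2 change -0.97), led by Cfd, Lep, Cidec and Adipoq, all 4 of which were above background on every array. Macrophage markers were higher for 6 of 8 (median 1.01), led by Trem2, Cd68, Adgre1 and Lyz2. In bulk tissue, fewer cells of a type and less RNA per cell cannot be told apart, and the part of these marker shifts in the values below was not tested.

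Of the 68 genes, 65 were above background and tested, each on all 4 arrays, with raw signals between 133.7 and 24300. The exceptions were NDUFS1, the largest iron-sulfur subunit of complex I, SDHA, the flavoprotein of succinate dehydrogenase, and UQCRFS1, the Rieske iron-sulfur protein of complex III. Their 5 probes gave raw signals of 98.1 to 119.4 and were not well above background. For a gene with several tested probes, the probe of highest mean signal stands for it unless another is named.

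None of the 65 tested genes passed a Benjamini-Hochberg adjusted p of 0.05 in limma's moderated test, against 7.44% of all 20797 tested probes. The smallest adjusted p among them was 0.0852, for ATP5K. At an unadjusted p under 0.05 there were 7 genes, or 10.8%, against 21.4% of all tested probes. These were ATPIF1, NDUFA10 and NDUFA2 with higher values in FtMT-Adip, and ATP5K, NDUFB3, NDUFB7 and NDUFB4 with lower values.

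The differences were small in size as well. The log2 change, FtMT-Adip minus WT, had a median of 0.01 over the 65 genes and ranged between -0.50 and 0.60. Its absolute value had a median of 0.12, against 0.15 over all tested probes. An absolute log2 change over 0.5 was reached by 2 genes, ATPIF1 and ATP5K, or 3.08% of the 65, against 11.0% of all tested probes. The 95% interval of the change lay within a 2-fold difference either way for 64 of the 65 genes and within a 1.5-fold difference for 48. The exception to the 2-fold bound was ATPIF1, whose interval reached 1.04 on the log2 scale. The arrays limit what can be resolved, since the interval's half-width had a median of 0.34 and a range of 0.23 to 0.55. The intervals belong to the main processing and leave out differences between normalizations. For some genes, such as UQCRH (-0.17 to 0.44), the change in the matrix that the authors normalized lay outside the interval.

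**Figure D1:**
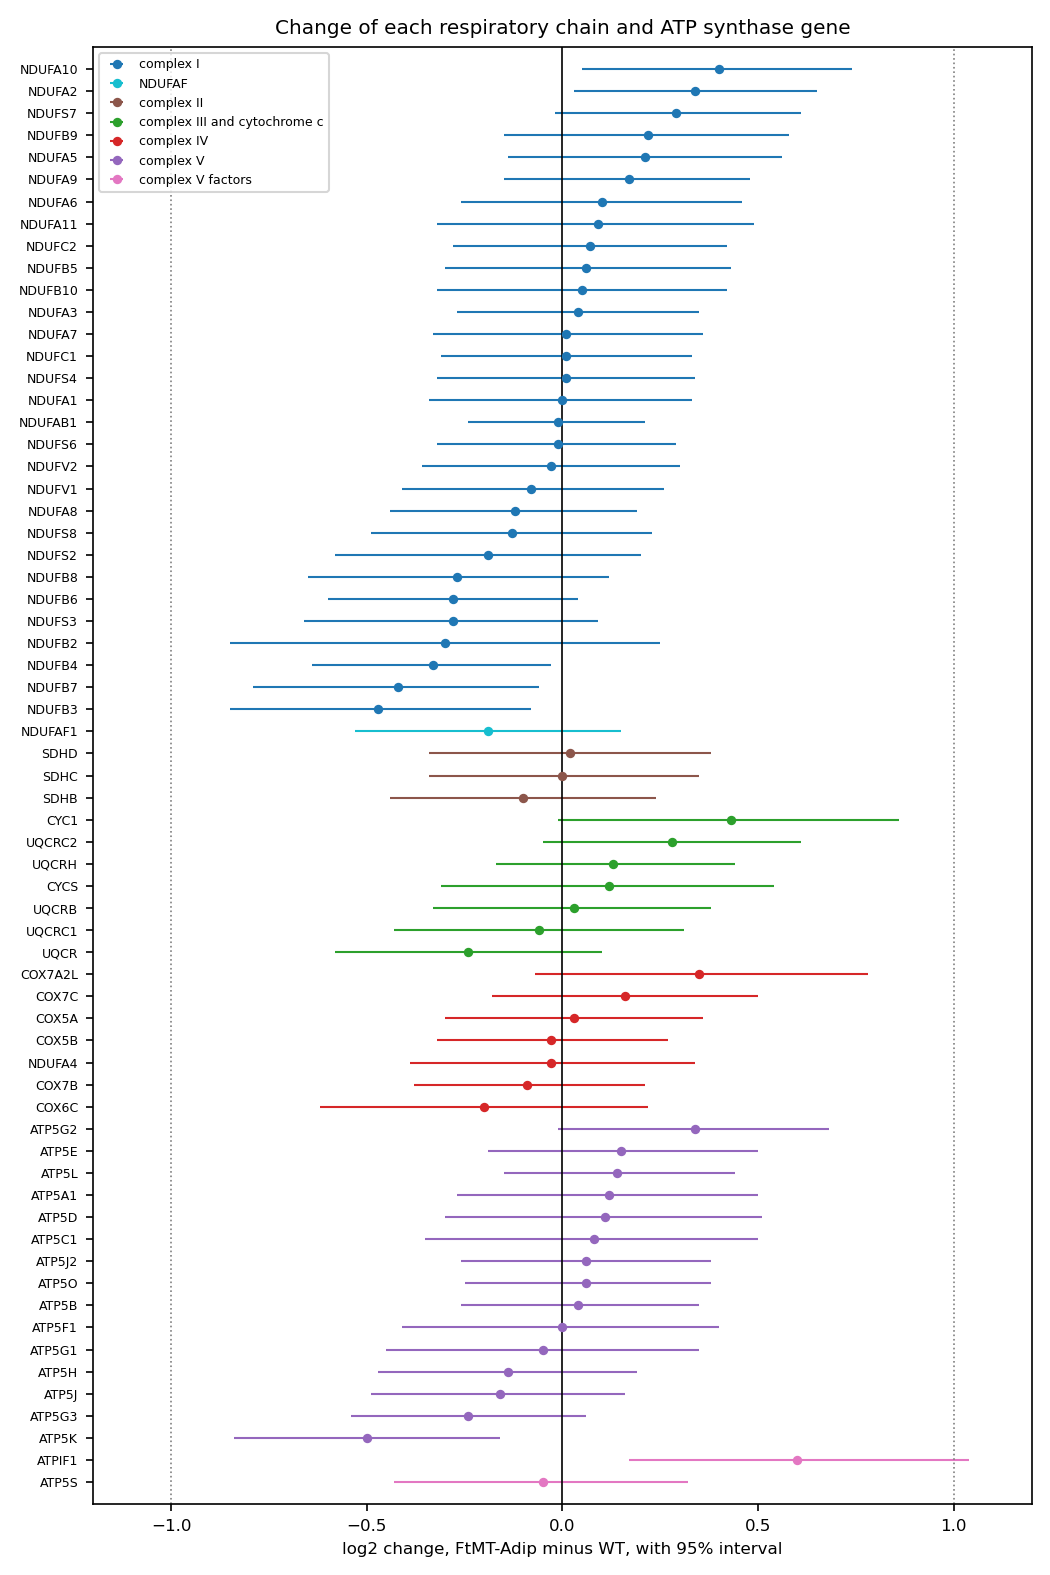
Log2 change (FtMT-Adip minus WT) of each of the 65 tested genes, 1 row per gene and sorted within its class, with horizontal bars for the 95% interval from limma (2 arrays per group) and dotted lines at a 2-fold difference. The points lie between -0.50 and 0.60, and the intervals of 58 genes include 0.

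The 4 arrays overlapped between groups for 39 of the 65 genes. Both FtMT-Adip arrays lay above both WT arrays for 14 genes, against 25.6% of all tested probes, and below them for 12, against 25.9%. Together these are 40.0% of the genes, against 51.5% of all tested probes. Separation of 2 arrays from 2 is the most extreme order possible and corresponds to an exact two-sided permutation p of 0.333, so it carries no call of its own.

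Complex I, which takes electrons from NADH, had 30 tested subunits and a median log2 change of 0.00, between -0.47 and 0.40. Changes were positive for 15 subunits and negative for 15. An unadjusted p under 0.05 in limma was reached by 5 (16.7%), against 21.4% of all tested probes. The arrays did not overlap for 12 of the 30 (40.0%), against 51.5% of all tested probes, with FtMT-Adip above WT for 6 and below for 6. Under scaling of each array to a common median, in place of quantile normalization, the median was -0.07.

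The highest complex I value belonged to NDUFA10, an accessory subunit related to nucleoside kinases. NDUFA10 had log2 signals of 11.28 and 11.52 in FtMT-Adip, against 10.97 and 11.03 in WT (log2 change 0.40, SE 0.153, limma adjusted p = 0.172). Both FtMT-Adip arrays were above both WT arrays. NDUFA2, an accessory subunit of the NADH-oxidizing arm, had 12.13 and 12.08 in FtMT-Adip, against 11.78 and 11.75 in WT (0.34, SE 0.136, limma adjusted p = 0.188). Here too the groups did not overlap, but the sign turned to -0.17 in the matrix that the authors normalized. NDUFS7, which carries the last iron-sulfur cluster before ubiquinone, had 11.69 and 11.69 in FtMT-Adip, against 11.43 and 11.37 in WT (0.29, SE 0.139, limma adjusted p = 0.272).

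Among the 30 complex I genes tested under the name rule, the 3 lowest values belonged to the NDUFB family. These are accessory subunits of the proton-pumping membrane arm. Ndufv3, a complex I subunit listed under an older name and given below, had -0.43. NDUFB3 (ILMN_2734511) had log2 signals of 10.11 and 10.48 in FtMT-Adip, against 10.77 and 10.76 in WT (log2 change -0.47, SE 0.169, limma adjusted p = 0.149). Both FtMT-Adip arrays were below both WT arrays, and FtMT-Adip 1 was the lowest, with a change of -0.28 without it. In the matrix the authors normalized, on the log2(value + 1) scale, NDUFB3 passed the threshold (limma adjusted p = 0.0499). NDUFB7 had 8.49 and 8.22 in FtMT-Adip, against 8.80 and 8.76 in WT (-0.42, SE 0.161, limma adjusted p = 0.167), again without overlap. NDUFB4 had 6.96 and 6.99 in FtMT-Adip, against 7.24 and 7.37 in WT (-0.33, SE 0.134, limma adjusted p = 0.195), but its change was 0.01 in the authors' normalized matrix at log2(value + 1).

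Across the family, 6 of 9 tested NDUFB genes had negative changes, with a median of -0.28, against -0.01 for the 5 tested subunits of the NADH-oxidizing N module, -0.13 for the 5 of the ubiquinone-reducing Q module and 0.04 for the other 11, which had -0.01 under median scaling. The arrays did not overlap for 5 NDUFB genes (55.6%), near the 51.5% of all tested probes. FtMT-Adip was below WT for 4 of them (NDUFB3, NDUFB4, NDUFB6 and NDUFB7) and above WT for NDUFB9. NDUFB2 (-0.30), NDUFB6 (-0.28) and NDUFB8 (-0.27) were also negative, while NDUFB9 (0.22), NDUFB5 (0.06) and NDUFB10 (0.05) were positive. A second, dimmer NDUFB8 probe had -0.44 and arrays that did not overlap. The family was looked at after its values were seen, and its median was -0.10 without FtMT-Adip 1 and -0.01 in the authors' normalized matrix at log2(value + 16). The N module median leaves out subunits listed under older names, such as Ndufv3. No difference between these modules was tested.

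NDUFS4, a small subunit of the N module, was read by 4 probes that did not give the same change. The brightest had 11.38 and 11.40 in FtMT-Adip, against 11.47 and 11.29 in WT, a log2 change of 0.01. The others had changes of -0.08, -0.36 and -0.42, and for the last 2 both FtMT-Adip arrays were below both WT arrays. Of the 19 genes with several tested probes, 8 had probes of opposite sign, NDUFS4, NDUFA3, NDUFC2, SDHB, CYCS, ATP5F1, ATP5L and ATP5O. Over all 90 tested probes of the members, 45 changes were positive and 45 negative. None was called in limma, and 11 (12.2%) had an unadjusted p under 0.05, against 21.4% of all tested probes. Many of these genes also have processed pseudogenes, and whether a probe matches them was not tested.

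NDUFAF proteins help to assemble complex I without remaining in it. The only one under its present name, NDUFAF1, had 9.35 and 9.47 in FtMT-Adip, against 9.61 and 9.58 in WT (log2 change -0.19, SE 0.151, limma adjusted p = 0.543). Both FtMT-Adip arrays were below WT. The 62 tested structural subunits had a median of 0.01, and a comparison with a single factor has no spread of its own.

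Matching of older names brought in 6 further tested NDUFAF genes, which the name rule does not take and which were added after the table had been read. With NDUFAF1 the 7 had a median of -0.01 and ranged between -0.21 and 0.38, inside the range of the structural subunits. None was called in limma, and 1 (14.3%) had an unadjusted p under 0.05, against 21.4% of all tested probes. Ndufaf4 was at the top, with 9.46 and 9.46 in FtMT-Adip against 9.07 and 9.09 in WT (0.38, SE 0.148, limma adjusted p = 0.172), and a second probe had 0.42. Ndufaf3 was at the bottom with -0.21. Of 8 other tested relatives under older names, 7 had positive changes and 1 a negative one (median 0.10). None of the 8 was called in limma, and 2 (25.0%) had an unadjusted p under 0.05, near the 21.4% of all tested probes. Atp5mpl, a small subunit of ATP synthase, had 12.33 and 12.59 in FtMT-Adip against 12.10 and 11.99 in WT (0.41, SE 0.149, limma adjusted p = 0.150), without overlap, but -0.01 in the authors' normalized matrix, and a dim second probe had 0.04. Ndufv3, a flavoprotein-module subunit of complex I, had 11.43 and 11.58 in FtMT-Adip against 12.04 and 11.81 in WT (-0.43, limma adjusted p = 0.140), and its other 2 probes had -0.32 and -0.26. On each of these 3 Ndufv3 probes both FtMT-Adip arrays were below both WT arrays.

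Complex II oxidizes succinate and passes the electrons to ubiquinone. SDHB, its iron-sulfur subunit, averaged a log2 signal of 10.07 ± 0.09 in FtMT-Adip and 10.17 ± 0.03 in WT (SD, n = 2 each), a log2 change of -0.10 (SE 0.150). Both FtMT-Adip arrays were below both WT arrays by a narrow margin, and its other 2 tested probes had 0.03 and -0.04. SDHC, a membrane anchor that holds the haem with SDHD, had 10.57 and 10.71 in FtMT-Adip, against 10.71 and 10.57 in WT (0.00, SE 0.152). SDHD had 7.78 and 8.06 in FtMT-Adip, against 7.89 and 7.91 in WT (0.02, SE 0.158). For both anchors the arrays of the groups overlapped. The class median was 0.00 here but -0.25 in the authors' normalized matrix at log2(value + 1).

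Complex III with cytochrome c had the highest median of the complexes, 0.12 over 7 tested genes, about the size of its spread between arrays of a group (SD 0.123). That sign turned in the authors' normalized matrix, where the median was -0.25 at log2(value + 1), and without FtMT-Adip 2, where it was -0.09. CYC1, the haem-bearing cytochrome c1, had 10.77 and 11.29 in FtMT-Adip, against 10.67 and 10.54 in WT (log2 change 0.43, SE 0.192, limma adjusted p = 0.243). FtMT-Adip 2 stood highest and the groups did not overlap, and leaving out FtMT-Adip 2 gave 0.17, leaving out FtMT-Adip 1 gave 0.69. UQCRC2, a core protein of the matrix side, had 12.23 and 12.40 in FtMT-Adip, against 12.12 and 11.95 in WT (0.28, SE 0.146, limma adjusted p = 0.315). UQCR, the small subunit now named Uqcr11, had 12.27 and 12.55 in FtMT-Adip, against 12.71 and 12.58 in WT (-0.24, SE 0.150, limma adjusted p = 0.418). Both of these had groups that did not overlap.

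The other genes of this complex were closer to 0. UQCRH, the hinge protein that aids electron transfer to cytochrome c, had a change of 0.13, with -0.66 in the authors' normalized matrix at log2(value + 1). CYCS, cytochrome c itself, had 10.66 and 11.15 in FtMT-Adip, against 10.84 and 10.73 in WT (0.12, SE 0.187), and the FtMT-Adip arrays spanned both WT arrays. UQCRB (0.03) and UQCRC1 (-0.06), a ubiquinone-binding subunit and the other core protein, had arrays that overlapped between groups. A dimmer UQCRB probe had 7.41 and 7.35 in FtMT-Adip, against 7.15 and 7.10 in WT (0.26, SE 0.135, limma adjusted p = 0.314), without overlap.

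Complex IV, which reduces oxygen, had 7 tested genes with a median of -0.03, against 0.15 in the authors' normalized matrix at log2(value + 1). COX7A2L, a factor for joining complexes III and IV into supercomplexes, had 11.24 and 11.02 in FtMT-Adip, against 10.55 and 11.01 in WT (log2 change 0.35, SE 0.188, limma adjusted p = 0.325). The groups were separated by a narrow margin, since WT 2 lay just below FtMT-Adip 2, and the change was 0.12 without WT 1 and 0.58 without WT 2. Its second probe had 0.31, also without overlap. COX6C had 11.11 and 11.50 in FtMT-Adip, against 11.67 and 11.34 in WT (-0.20, SE 0.185), with overlap. COX7C (0.16), COX5A (0.03), NDUFA4 (-0.03) and COX7B (-0.09), small nuclear-encoded subunits, also had arrays that overlapped.

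ATP synthase showed values of both signs among its own parts. The class median over 15 tested subunits was 0.06, with -0.07 in the authors' normalized matrix. The 5 tested subunits of the catalytic F1 head were all positive, between 0.04 and 0.15, but 3 of 5 were negative in the authors' normalized matrix and 3 of 5 without FtMT-Adip 2. Only ATP5E, the epsilon subunit, separated the groups, with 7.92 and 8.12 in FtMT-Adip against 7.83 and 7.90 in WT (0.15, SE 0.152). The 10 subunits of the membrane part and stalk had a median of -0.03 and ranged between -0.50 and 0.34.

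ATP5K, subunit e of the membrane part, which helps ATP synthase form dimers, had the lowest value of all 65 genes. ATP5K (ILMN_1214830) had log2 signals of 6.61 and 6.56 in FtMT-Adip, against 6.90 and 7.28 in WT (log2 change -0.50, SE 0.150, limma adjusted p = 0.0852). Both FtMT-Adip arrays were below both WT arrays, and WT 2 was the highest. Without WT 1 the change was -0.70 and passed the threshold (limma adjusted p = 0.0348), and without WT 2 it was -0.31. Its raw signals of 142.9 and 143.6 in FtMT-Adip and 166.6 and 197.4 in WT lie near the receptor background, and a second probe was not well above it.

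ATP5G1, ATP5G2 and ATP5G3 encode the same peptide of the c-ring, which turns with the proton flow, and their changes did not share a sign. ATP5G2 had 8.89 and 8.83 in FtMT-Adip, against 8.59 and 8.45 in WT (log2 change 0.34, SE 0.151, limma adjusted p = 0.244). ATP5G3 had 13.79 and 14.01 in FtMT-Adip, against 14.05 and 14.23 in WT (-0.24, SE 0.133, limma adjusted p = 0.349). The groups did not overlap for either gene, above WT for ATP5G2 and below for ATP5G3. ATP5G1 had 10.64 and 10.34 in FtMT-Adip, against 10.39 and 10.68 in WT (-0.05, SE 0.176), with overlap. ATP5J, a coupling factor of the stalk, had -0.16 on its bright probe and -0.37 on a dimmer one, and FtMT-Adip was below WT on both.

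ATPIF1, the inhibitor that stops ATP synthase from running backwards and burning ATP, had the highest value of all 65 genes. ATPIF1 (ILMN_1250068) had log2 signals of 12.11 and 11.62 in FtMT-Adip, against 11.13 and 11.39 in WT, which is 1.52-fold (log2 change 0.60, SE 0.191, limma adjusted p = 0.101). Both FtMT-Adip arrays were above both WT arrays, with FtMT-Adip 1 highest and WT 1 lowest. Without FtMT-Adip 2 the change was 0.85 and passed the threshold (limma adjusted p = 0.0240), and without FtMT-Adip 1 it was 0.36. A dim probe listed as ATPI, an older name of the gene, had 6.66 and 6.54 in FtMT-Adip, against 6.56 and 6.53 in WT (0.06), with overlap. The summed raw signal of the skeletal muscle markers was 11522.6 in FtMT-Adip 1 and 4743.9 in FtMT-Adip 2, against 4860.7 and 4904.8 in WT. The array highest for ATPIF1 was thus also highest for this sum. The macrophage, fibroblast and epithelium (1 marker) sums were also highest on that array. The macrophage sum was 17497.2 and 15611.8 in FtMT-Adip, against 7370.9 and 7886.4 in WT. The fibroblast sum was 16097.4 and 13611.9 in FtMT-Adip, against 13160.5 and 12364.7 in WT. The largest single part of the muscle sum was Myl1, with 3796.6 and 2373.3 in FtMT-Adip, against 3521.2 and 3468.6 in WT. Both FtMT-Adip arrays lay above both WT arrays for 7 of the 8 tested muscle markers (87.5%), against 25.6% of all tested probes. The median log2 difference of the 8 from the WT mean was 2.83 in FtMT-Adip 1 but 0.44 in FtMT-Adip 2. Of the 8, 2 were called higher, against 3.28% of all tested probes, and Myh1, Myh2, Myh4 and Myh7 were below background. The part of the muscle markers, or of the other marker lists, in the ATPIF1 value was not tested. ATP5S, the other factor, now named Dmac2l, had a change of -0.05.

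**Figure D2:**
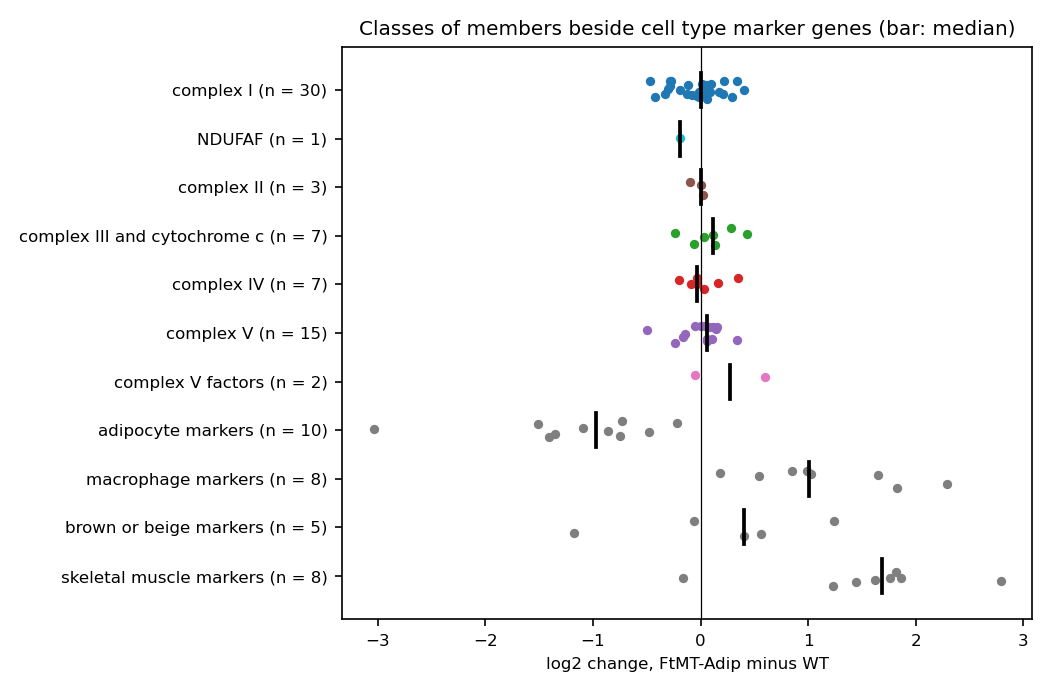
Log2 change (FtMT-Adip minus WT) of each tested gene in the 7 classes of members, coloured, and in 4 cell type marker lists, grey, with a black bar at each median. The classes have medians between -0.19 and 0.28 and single values between -0.50 and 0.60, whereas the adipocyte markers have a median of -0.97 and the macrophage markers of 1.01.

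The promoters of many nuclear respiratory chain genes carry sites for NRF1 and GABP, transcription factors known to switch on these genes. RefSeq windows (GRCm38.p6) of the 250 bases before the start were given for 58 of the 68 genes. The NRF1 core searched, GCATGCG on either strand, was in 8 of them (13.8%), against 3.07% of 27025 genes. The GABP core, CCGGAAG on either strand, was in 10 (17.2%), against 7.05%, and the YY1 core, AAGATGG, was in 0 of 58, against 4.53%. ATP5L holds both of the first 2 cores.

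Windows with the NRF1 core are shown for 3 genes whose changes differed, ATP5K at -0.50, CYCS at 0.12 and ATP5G2 at 0.34, with the 8 bases where the core reads on both strands in capitals. They lie at chr5:108434400-108434649, chr6:50566570-50566819 and chr15:102671048-102671297 in the order printed, all on the minus strand and written 5′ to 3′ along the gene. The capitals begin 49 bases before the start in Atp5k, 61 in Cycs and 41 in Atp5g2.
Atp5k: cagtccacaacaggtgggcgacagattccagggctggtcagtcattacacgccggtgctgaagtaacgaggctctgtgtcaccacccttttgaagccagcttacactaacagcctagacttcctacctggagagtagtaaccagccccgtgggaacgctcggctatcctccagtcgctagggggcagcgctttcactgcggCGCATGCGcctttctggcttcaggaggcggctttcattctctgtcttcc
Cycs: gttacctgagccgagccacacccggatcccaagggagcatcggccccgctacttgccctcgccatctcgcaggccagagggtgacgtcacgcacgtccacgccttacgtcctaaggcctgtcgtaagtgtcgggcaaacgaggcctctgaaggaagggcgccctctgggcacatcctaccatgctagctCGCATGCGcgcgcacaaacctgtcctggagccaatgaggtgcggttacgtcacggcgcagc
Atp5g2: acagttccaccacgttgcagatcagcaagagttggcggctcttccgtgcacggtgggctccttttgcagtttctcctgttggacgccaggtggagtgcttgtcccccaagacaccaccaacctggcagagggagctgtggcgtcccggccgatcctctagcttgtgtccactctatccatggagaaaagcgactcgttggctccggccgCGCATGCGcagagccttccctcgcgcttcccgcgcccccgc

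The same 8 bases thus stand upstream of the gene with the lowest value, of one with a change of 0.12 and of the ATP synthase subunit with the highest value among the 15 taken by the name rule. The 8 genes with an NRF1 core had a median log2 change of 0.10, between -0.50 and 0.34, 3 of them negative. The 10 genes with a GABP core had a median of -0.16, between -0.42 and 0.15, 6 of them negative. The 39 tested genes with neither these cores nor the YY1 core had a median of 0.01, between -0.47 and 0.60. A match of letters is a description of the window, and binding was not measured.

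Subunits that hold an iron-sulfur cluster or haem use the metal that mitochondrial ferritin stores. The 9 tested had a median log2 change of 0.00, between -0.13 and 0.43, and the 53 tested structural subunits without such a cofactor had 0.01, between -0.50 and 0.40. None of the 9 was called or had an unadjusted p under 0.05 in limma. The groups did not overlap for 3 of the 9 (33.3%), against 51.5% of all tested probes. These were CYC1 and NDUFS7 above WT and SDHB below. Without FtMT-Adip 2 the median of the 9 was -0.12, and in the authors' normalized matrix at log2(value + 1) it was -0.11. No difference between the sets was tested.

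Values also differed between the arrays of a group. FtMT-Adip 1 held the lowest of the 4 values for 31 of the 65 genes (47.7%), against 29.1% of all tested probes, and FtMT-Adip 2 for 4. FtMT-Adip 2 held the highest value for 24 (36.9%), against 21.9% of all tested probes, and WT 1 for 21 (32.3%), against 26.9%. The median deviation of the 65 genes from their mean over the arrays was -0.07 and 0.07 in the FtMT-Adip arrays, against 0.01 and -0.03 in the WT arrays. In each of the 5 complexes the median of FtMT-Adip 1 lay below the WT mean and that of FtMT-Adip 2 above it, by -0.07 and 0.03 in complex I, -0.12 and 0.07 in complex II, -0.09 and 0.15 in complex III, -0.01 and 0.02 in complex IV and -0.06 and 0.14 in complex V.

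**Figure D3:**
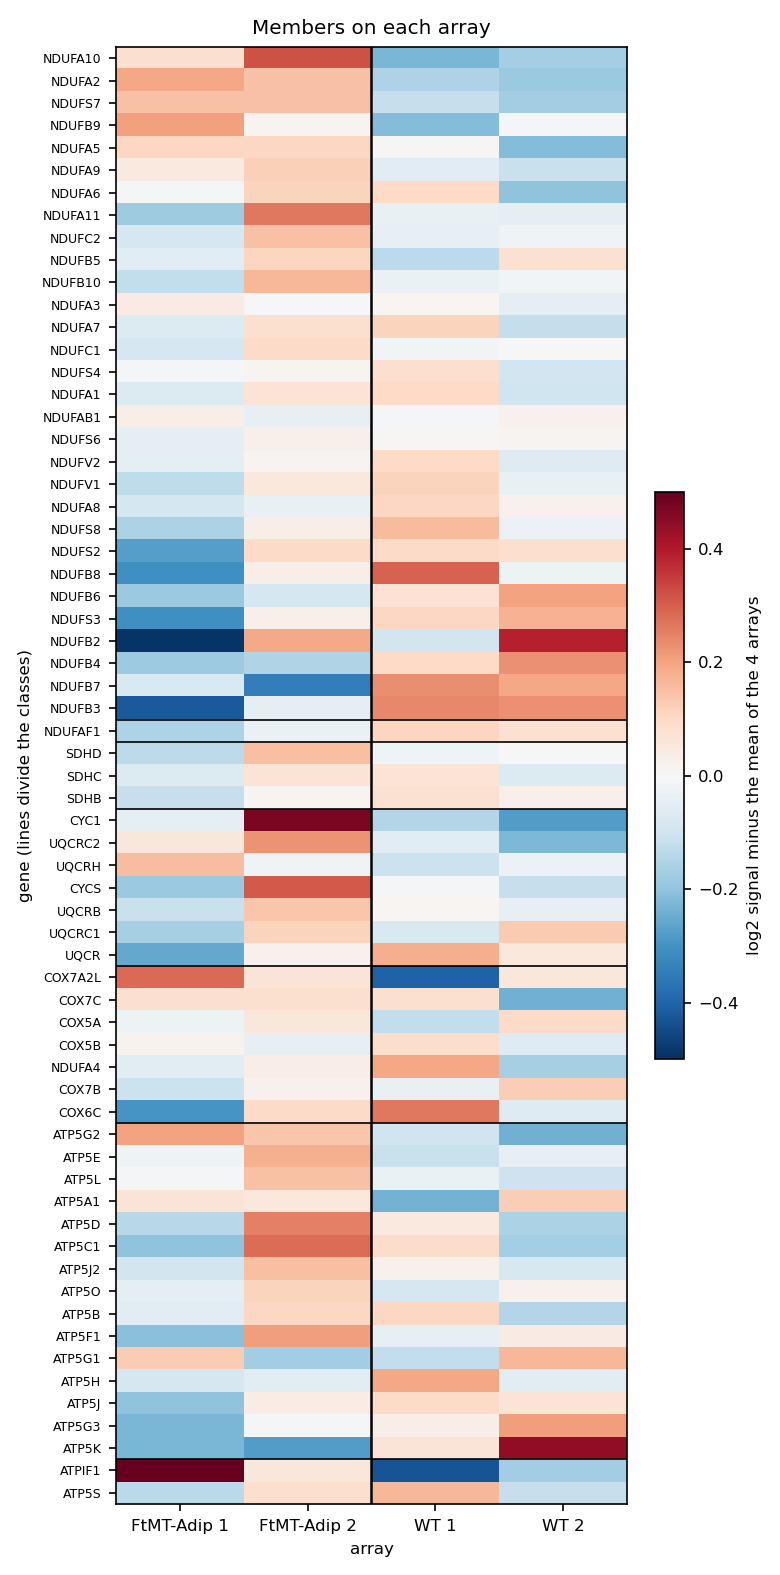
Log2 signal of the 65 tested genes (rows, divided by class in the same order as the intervals) on the 4 arrays (columns, FtMT-Adip left of WT), as the difference from each gene's mean over the arrays. FtMT-Adip 1 is the lowest array for 31 genes and FtMT-Adip 2 the highest for 24.

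The summed raw signal of brown and beige adipocyte markers, cells rich in mitochondria, also differed within the groups. It was 3737.1 and 6239.2 in FtMT-Adip, against 6954.0 and 1884.1 in WT, over 5 tested of 7 markers, 0 of them called in limma at an adjusted or an unadjusted p under 0.05. Elovl3 and Dio2 were below background. Ucp1, the uncoupling protein that defines brown fat, singled out after its values were seen, had raw signals of 110.2 and 132.0 in FtMT-Adip, against 498.1 and 108.1 in WT. Within each group the array with more brown marker signal, FtMT-Adip 2 and WT 1, was also the one with the higher median of the respiratory chain genes. Most of the marker signal on those arrays came from Cox8b (3287.1 in FtMT-Adip 2 and 4086.2 in WT 1) and Cox7a1 (1293.4 in FtMT-Adip 2 and 1391.6 in WT 1). Both are themselves subunits of complex IV and also count among the other respiratory chain genes below. Cidea, which is not a respiratory chain subunit, had 632.9 and 1397.4 in FtMT-Adip, against 839.1 and 225.5 in WT. The order was not particular to the brown and beige list. The summed raw signal of the 10 adipocyte markers was also higher in FtMT-Adip 2 and in WT 1 within their groups. It was 39155.8 and 57221.6 in FtMT-Adip, against 129480.7 and 105885.4 in WT. The part of either marker list in the respiratory chain values was not tested.

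**Figure D4:**
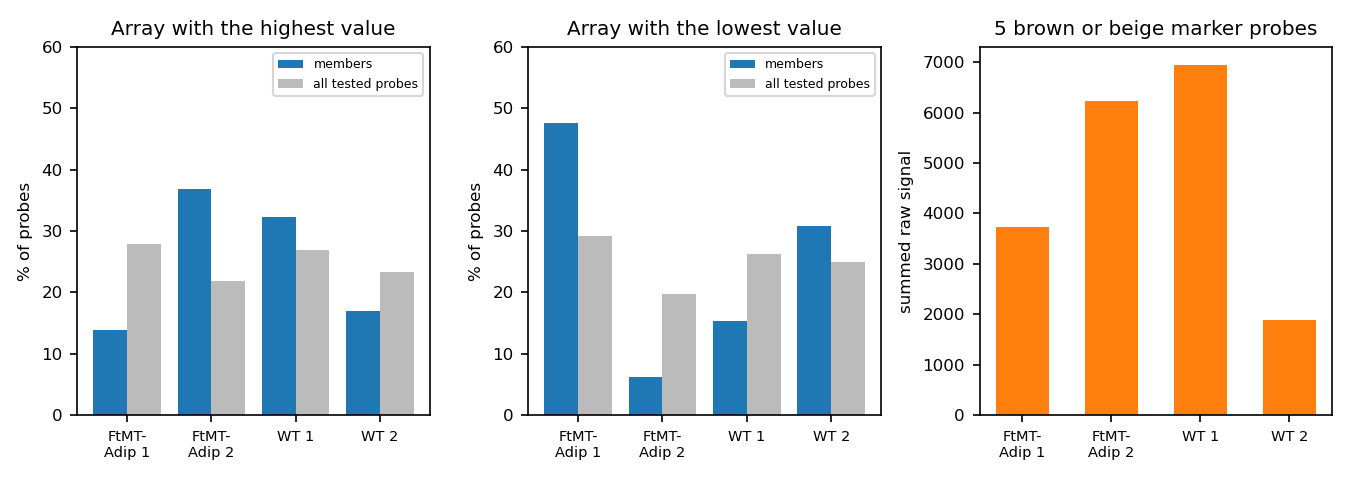
Share of the 65 members (blue) and of all 20797 tested probes (grey) for which each array held the highest value (left) or the lowest (middle), in percent, and the summed raw signal of 5 brown or beige marker probes (right). FtMT-Adip 2 and WT 1 hold the larger shares of highest values among members (36.9% and 32.3%) and the larger marker sums (6239.2 and 6954.0).

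Genes of the same machinery outside the name rule gave a few calls. Of 57 tested, 3 were higher and 1 lower in FtMT-Adip in limma, against 3.28% higher and 4.16% lower of all tested probes. Cox6a2, a complex IV subunit typical of heart and skeletal muscle, had log2 signals of 9.14 and 9.01 in FtMT-Adip, against 6.38 and 6.76 in WT (log2 change 2.50, SE 0.171, adjusted p = 0.000441), and kept its call under every alternative run. The 8 tested muscle markers had a median log2 difference of 2.55 between FtMT-Adip 1 and FtMT-Adip 2. Their part in the Cox6a2 value was not tested. The COX subunits of the name rule had values between -0.20 and 0.35.

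The other calls had adjusted p-values closer to the threshold. Ppargc1b, a coactivator of mitochondrial gene transcription, had 8.47 and 8.35 in FtMT-Adip, against 7.85 and 7.76 in WT (0.61, SE 0.149, limma adjusted p = 0.0427). Uqcc2, an assembly factor of complex III, had 11.66 and 11.68 in FtMT-Adip, against 11.16 and 11.08 in WT (0.55, SE 0.141, limma adjusted p = 0.0496). Acad9, an assembly factor of complex I related to acyl-CoA dehydrogenases, had 7.38 and 7.45 in FtMT-Adip, against 8.03 and 7.99 in WT (-0.59, SE 0.143, limma adjusted p = 0.0394). The groups did not overlap for any of them, and each of these 3 calls ended in the authors' normalized matrix and when any single array was left out. Of 7 tested genes of mitochondrial mass, such as citrate synthase and the VDAC channels, none was called in limma, against 7.44% of all tested probes. None had an unadjusted p under 0.05 in limma, against 21.4%. Their median log2 change was 0.04, between -0.09 and 0.36. The arrays did not overlap for 3 of the 7 (42.9%), against 51.5% of all tested probes, each with FtMT-Adip above WT. So few genes do not settle whether mitochondrial mass differed.

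In the authors' deposited table, which divides the mean of FtMT-Adip by that of WT, the ratio was 1.54 for ATPIF1, 0.631 for ATP5K and 0.528 for NDUFB3, on the same side of 1 as the changes above. For 25 of the 65 genes the deposited ratio lay on the other side. Refitted on the log2(value + 1) scale, that matrix gave the opposite sign for 36.9% of the 65 genes and for 20.8% of all tested probes.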

How the data were processed

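The deposited non-normalized intensity values, so named in the authors' table, were background-corrected with normexp (offset 50), quantile normalized and put on the log2 scale in limma 3.58.1 (R 4.3.3). Per the file headers, a second deposited matrix holds intensity that the authors normalized, with a ratio of FtMT-Adip over WT means; it served as an alternative, with values below 0 set to 0. A further 12 per-sample columns, 8 of log10 values and 4 of the series value table, were not used. How beads were scanned and summarised is not given in the sources used here, and the labels name a MouseRef-8 v2 chip, but each array has 45281 probes, so the chip type is not settled.

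Detection p-values were not used here. A probe was tested if its rank against 1479 olfactory and vomeronasal receptor probes gave an empirical p under 0.05 on at least 2 of 4 arrays. The groups were compared with lmFit and eBayes (with trend), two-sided, Benjamini-Hochberg adjusted over all 20797 tested probes at 0.05. The method was run on simulated independent arrays with planted changes larger than those of the members. That run does not show how well changes as small as theirs are found. Intervals use 8.86 degrees of freedom. No batch is given. The labels give no pairing, and the numbers were not taken as pairs. Deviations from the group mean correlated at -0.0793 between same-numbered arrays, which with 2 arrays per group does not settle the question. Names were matched to RefSeq (GRCm38.p6), 65 member names by symbol and 3 by synonym.

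Genes were named by a rule: called members, the 3 highest and 3 lowest changes per class, genes whose probes differ in sign, called genes of the other respiratory chain list, and up to 4 called markers per list. Other members were named after their values were seen: NDUFB2, NDUFB5, NDUFB6, NDUFB8, NDUFB9, NDUFB10, ATP5G1 and the relatives under older names. The members, classes and lists were chosen with earlier results of these data known. Alternatives were other background corrections, scalings, filters, variance models, the replicate block and leaving out each array. Other marker lists were red blood cell (3 of 4 lower), endothelial (3 of 5 lower), neutrophil (1 of 2 lower), fibroblast (0 of 6), T and B cell (0 of 5) and epithelium (0 of 1). Of all tested probes 3.28% were called higher and 4.16% lower.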

Additional observations from a re-analysis of the deposited data

How the results depend on the processing

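Over all tested probes 1548 were called, against 699 and 610 in the authors' normalized matrix at log2(value + 1) and log2(value + 16), and 652 to 1627 when 1 array was left out (652 without FtMT-Adip 1, 929 without WT 1). The replicate number as a block gave 1225 calls and 0 of the 65 members. Deviations from the group mean correlated at -0.0793 between same-numbered arrays and at 0.0793 between crossed numbers. With 2 arrays per group these are mirror values, so they do not settle whether the numbers mark pairs. Called members were 0, and 0 to 1 when 1 array was left out. They were 1 in the authors' normalized matrix at log2(value + 1), NDUFB3 lower. The settings without background correction, with an offset of 16, with median scaling, without a filter, with all 4 arrays above background and without a variance trend each left 0 of 65 called in limma, with 5 to 9 at an unadjusted p under 0.05.

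Class medians moved as follows. Under median scaling complex I was at -0.07, and 40 of the 65 genes were negative, against 30 under quantile normalization. In the authors' normalized matrix at log2(value + 1) and log2(value + 16), complex II was at -0.25 and -0.23, complex III at -0.25 and -0.24, complex IV at 0.15 and 0.10 and complex V at -0.07 and -0.07. Leaving out 1 array gave -0.07 to 0.03 for complex I, -0.12 to 0.07 for complex II, -0.09 to 0.15 for complex III, -0.01 to 0.05 for complex IV, -0.06 to 0.14 for complex V and -0.07 to 0.07 for all members. Without FtMT-Adip 2, 45 of the 65 were negative.

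Under median scaling 10 of the 65 genes changed sign, and 24 did in the authors' normalized matrix. Leaving out 1 array changed the sign of 8 to 19. Among the genes named in the text, the sign turned under median scaling for ATP5O (-0.05), COX5A (-0.05), NDUFA3 (-0.03), NDUFC2 (-0.01), NDUFS4 (-0.08), SDHC (-0.07) and UQCRB (-0.02).
Among the same genes it turned in the authors' normalized matrix, at log2(value + 1) and log2(value + 16), for ATP5G1 (0.08 and 0.07), ATP5L (-0.07 and -0.07), ATP5O (-0.11 and -0.11), ATP5S (0.03 and 0.01), COX7B (0.22 and 0.07), COX7C (-0.17 and -0.16), NDUFA2 (-0.17 and -0.16), NDUFA3 (-0.40 and -0.37), NDUFA4 (0.15 and 0.14), NDUFB4 (0.01 and 0.00), NDUFS4 (-0.16 and -0.15), SDHC (-0.25 and -0.23), SDHD (-0.11 and -0.07), UQCRB (-0.53 and -0.44), UQCRH (-0.66 and -0.63) and Atp5mpl (-0.01 and -0.01).
Among them, leaving out 1 array in turn crossed 0 for ATP5F1 (-0.21 to 0.21), ATP5G1 (-0.20 to 0.11), ATP5O (-0.01 to 0.14), ATP5S (-0.19 to 0.09), COX5A (-0.08 to 0.14), COX7C (0.00 to 0.32), CYCS (-0.13 to 0.37), NDUFA4 (-0.20 to 0.15), NDUFB10 (-0.10 to 0.19), NDUFB2 (-0.64 to 0.04), NDUFB5 (-0.04 to 0.17), NDUFC2 (-0.05 to 0.18), NDUFS4 (-0.08 to 0.10), SDHC (-0.07 to 0.07), SDHD (-0.12 to 0.16), UQCRB (-0.09 to 0.15), UQCRC1 (-0.20 to 0.08) and Ucp1 (-2.60 to 0.23).
All of these had main changes that missed the threshold, and the cause of each turn was not tested. ATP5K, ATPIF1, NDUFB3, NDUFB7, NDUFA10, CYC1, ATP5G2 and ATP5G3 kept their sign under every alternative run. With 2 arrays per group the moderated test borrows its spread from other probes, and when an array is left out the lone array is assumed to vary like the other group. Genes near background, such as ATP5K and NDUFB4, have changes compressed by the offset.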
